A study of Homo sapiens with 7 samples.

Results

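The mRNAs described here are those of 10 secreted inflammatory proteins, IL1A, IL1B, IL6, CXCL1, CXCL2, CXCL3, CCL20, LIF, TNF and CSF2. They were taken by gene symbol, through the accession that each microarray probe carries, and they are 10 of the 19062 genes that could be named on the arrays. They were represented by 13 probes. CXCL1, CXCL2 and LIF had 2 probes each and the other 7 genes had 1. For a gene with 2 probes the brighter is given first and the other beside it. The choice used no measured value of these arrays.

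IL-1α, IL-1β and TNF are alarm cytokines that switch on the transcription factor NF-κB in neighbouring cells, and NF-κB in turn drives transcription of many chemokines, small proteins that attract leukocytes. CXCL1, CXCL2 and CXCL3 are closely related chemokines that draw neutrophils through the receptor CXCR2, while CCL20 attracts lymphocytes and dendritic cells through CCR6. IL-6 and LIF signal through the shared receptor chain gp130, and CSF2 (GM-CSF) supports granulocytes and macrophages. Many of these mRNAs are short-lived because AU-rich elements near their ends recruit deadenylases, the enzymes that shorten the poly(A) tail and so begin mRNA decay.

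The study silenced deadenylases in NCI-H520, an established human cell line of squamous lung carcinoma origin, to see which mRNAs change, and measured total RNA on single-colour Agilent SurePrint arrays. There were 7 arrays, 1 per group. All cells received 6 µg of a plasmid in cationic liposomes, were selected with puromycin at 6 µg/mL from 12 h after transfection and were harvested at 72 h. The groups were the empty vector, a non-target vector whose shRNA matches no known gene, and 5 shRNAs, directed at PARN, CNOT6, CNOT6L, CNOT7 and NOC. NOC is nocturnin, whose gene symbol is NOCT. The cells were therefore transiently transfected and selected pools of 1 line, also in the controls, and untransfected cells were not analysed here. The labels give the CNOT6L and NOC shRNAs the same target accession, so the sequence of the CNOT6L shRNA is uncertain.

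No group had a replicate. Values are processed signals on the log2 scale after each array's 75th percentile was subtracted, so that 0 is the level of a fairly bright probe. A gene was called higher or lower on an shRNA array only when both control arrays lay on the same side of it and each was 2-fold or more away. No p-value stands behind such a call. The printing error within an array, seen over all probes printed on 2 spots, was 0.05 to 0.07 log2 (median SD). Some members scattered more, as given with their values. Before scaling, the 75th percentile of the signal was lowest with CNOT6 shRNA, at 854, and highest with CNOT7 shRNA, at 2371. All 6 epithelial markers examined (EPCAM, CDH1, KRT8, KRT18, KRT19 and CLDN7) were well above background on all arrays. Of 8 squamous markers, SOX2, KRT6A, DSC3 and PKP1 were so on all arrays, KRT5 on 4, TP63 on 2, KRT14 on 1 and DSG3 on none. DSC3 and PKP1 were dim, at -5.33 and -5.07 on the empty-vector array. The 7 measured leukocyte markers also passed the background mark on all arrays. Most were dim, such as CD3E at -4.03 on the empty-vector array, but ITGAM was at 0.86 there and CD14 at 4.49. What gives the signal of these markers in a carcinoma line was not tested.

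The promoters of CXCL1, CXCL2 and CXCL3 are printed because these genes moved together on the arrays. Each runs from 250 bases before to 50 bases after the start of transcription, 5′ to 3′ on the strand of the gene, in RefSeq sequence of GRCh38.p14. They lie at chr4:73869143-73869442 (plus strand) for CXCL1, chr4:74099146-74099445 (minus strand) for CXCL2 and chr4:74038640-74038939 (minus strand) for CXCL3. Capitals mark letters that match, on either strand, a pattern like that bound by NF-κB (GGGA, then any 4 letters, then CC).
CXCL1: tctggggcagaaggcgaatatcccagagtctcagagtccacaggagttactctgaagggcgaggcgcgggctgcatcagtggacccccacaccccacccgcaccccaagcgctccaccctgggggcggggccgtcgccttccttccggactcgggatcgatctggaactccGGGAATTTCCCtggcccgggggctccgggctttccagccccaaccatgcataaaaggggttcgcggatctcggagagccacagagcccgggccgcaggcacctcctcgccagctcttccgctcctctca
CXCL2: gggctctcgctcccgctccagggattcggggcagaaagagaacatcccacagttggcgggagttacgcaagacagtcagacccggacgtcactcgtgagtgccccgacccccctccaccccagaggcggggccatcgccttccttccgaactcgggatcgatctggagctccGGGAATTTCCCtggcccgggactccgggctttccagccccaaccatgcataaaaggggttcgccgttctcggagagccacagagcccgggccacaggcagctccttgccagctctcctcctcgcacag
CXCL3: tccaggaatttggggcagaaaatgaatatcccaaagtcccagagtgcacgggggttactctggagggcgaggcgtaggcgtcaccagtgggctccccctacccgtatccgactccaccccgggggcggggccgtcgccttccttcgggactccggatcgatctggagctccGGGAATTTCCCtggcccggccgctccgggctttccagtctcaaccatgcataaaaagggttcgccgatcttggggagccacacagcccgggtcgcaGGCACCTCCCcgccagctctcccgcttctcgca
All 3 hold the same word, GGGAATTTCCC, which matches the pattern on both strands in overlapping positions. Its first base lies at position -79 from the start in CXCL1 and CXCL3 and at -78 in CXCL2. The longest run of letters common to all 3 promoters is 23 bases long and contains this word, ctccgggaatttccctggcccgg. The word was found in 27 of 35116 RefSeq promoters of this length (0.0769%), counting every listed start of a gene. The looser NF-κB-like pattern is common. It was in 25.6% of the 35116 promoters and in those of 6 of the 9 members with an entry (IL6, CXCL1, CXCL2, CXCL3, CCL20 and CSF2). The pattern TGANTCA, like that bound by AP-1, was in 7.71% of promoters and in 1 member, IL1A. LIF had no entry.

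The level of each gene over the 7 arrays is described first. CXCL1 (probe A_23_P7144) stood at -2.20 with the empty vector, -2.32 with the non-target vector, -2.22 on the PARN shRNA array, -0.72 on CNOT6, -3.23 on CNOT6L, -2.27 on CNOT7 and -1.56 on NOC. The CNOT6 array was thus the highest and CNOT6L the lowest, NOC lay between CNOT6 and the rest, and the other 4 arrays lay within the SD between spots, which reached 0.13. The other CXCL1 probe, A_33_P3330264, gave -3.10, -3.23, -3.27, -1.83, -3.87, -3.30 and -2.85 in the same order of arrays. Its order of arrays was the same at the top (CNOT6, then NOC) and at the bottom (CNOT6L).

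CXCL2 (A_24_P257416, 1 spot per array) was at -1.94 and -2.12 on the empty-vector and non-target arrays and at -2.03 for PARN, -0.56 for CNOT6, -2.83 for CNOT6L, -2.08 for CNOT7 and -1.60 for NOC shRNA. The other CXCL2 probe, A_23_P315364, was at -2.52 and -2.40 on the controls and at -2.64, -0.73, -3.12, -2.27 and -1.47 on the shRNA arrays. The highest, second and lowest arrays were again CNOT6, NOC and CNOT6L with both probes. CXCL3 (A_24_P183150) was at -2.45 and -2.49 on the controls and at -2.34, -1.03, -3.54, -2.60 and -2.04 on the PARN, CNOT6, CNOT6L, CNOT7 and NOC shRNA arrays. Its SD between spots reached 0.24, so the controls, PARN and CNOT7 could not be ordered. The sequences of the probes were not used here, and whether these related mRNAs bind each other's probes was not tested.

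CCL20 (A_23_P17065) had the widest range. It was at -2.28 with the empty vector, -3.83 with the non-target vector and -3.28, -1.86, -4.39, -3.76 and -3.14 on the PARN, CNOT6, CNOT6L, CNOT7 and NOC shRNA arrays. CNOT6 was the highest and CNOT6L the lowest, as for the CXCL genes, but the controls lay far apart. The empty-vector value rests on 2 spots that disagree, with processed signals of 298 and 575.3.

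TNF (A_23_P376488) was at 1.99 with the empty vector, 0.42 with the non-target vector and 2.02, 2.18, 1.70, 1.49 and 1.58 on the PARN, CNOT6, CNOT6L, CNOT7 and NOC shRNA arrays. The non-target array stood alone at the bottom. LIF (A_24_P122137) was at -1.74 and -3.03 on the empty-vector and non-target arrays and at -1.79, -2.04, -2.39, -2.38 and -2.32 on the shRNA arrays in the same order. Here too the non-target array was the lowest, and LIF was the only one of the 8 members above background on all arrays whose highest value was not on the CNOT6 shRNA array. The other LIF probe, A_24_P233488, printed on 1 spot, gave -5.21, -6.09, -5.49, -5.42, -5.51, -5.01 and -5.38 over the 7 arrays, and its highest array was CNOT7. Without the non-target array the range of TNF over the others narrowed from 1.76 to 0.70 log2 and that of LIF from 1.29 to 0.65, while the ranges of CXCL1, CXCL2, CXCL3 and CCL20 did not change.

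The interleukin probes were dim and uneven. IL1B (A_23_P79518), printed on 10 spots, was at -4.73, -5.31, -5.20, -4.36, -5.39, -5.59 and -5.65 in the order empty vector, non-target, PARN, CNOT6, CNOT6L, CNOT7 and NOC. The SD among its single spots was widest on the non-target and PARN arrays, at 1.43 and 1.10. On the other arrays it was 0.15 to 0.43. IL6 (A_23_P71037, 10 spots) was at -4.49, -5.63, -5.43, -4.25, -4.48, -4.67 and -4.78, with an SD among spots of up to 1.13. Its 2 lowest arrays, non-target and PARN, were those with the wide scatter. IL1A (A_23_P72096, 10 spots) was at -6.39, -7.61, -6.91, -6.04, -6.31, -6.48 and -6.13, and was not well above background on the non-target and PARN arrays. CSF2 (A_23_P133408) passed the background mark on 0 of 7 arrays and enters no comparison.

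**Figure D1:**
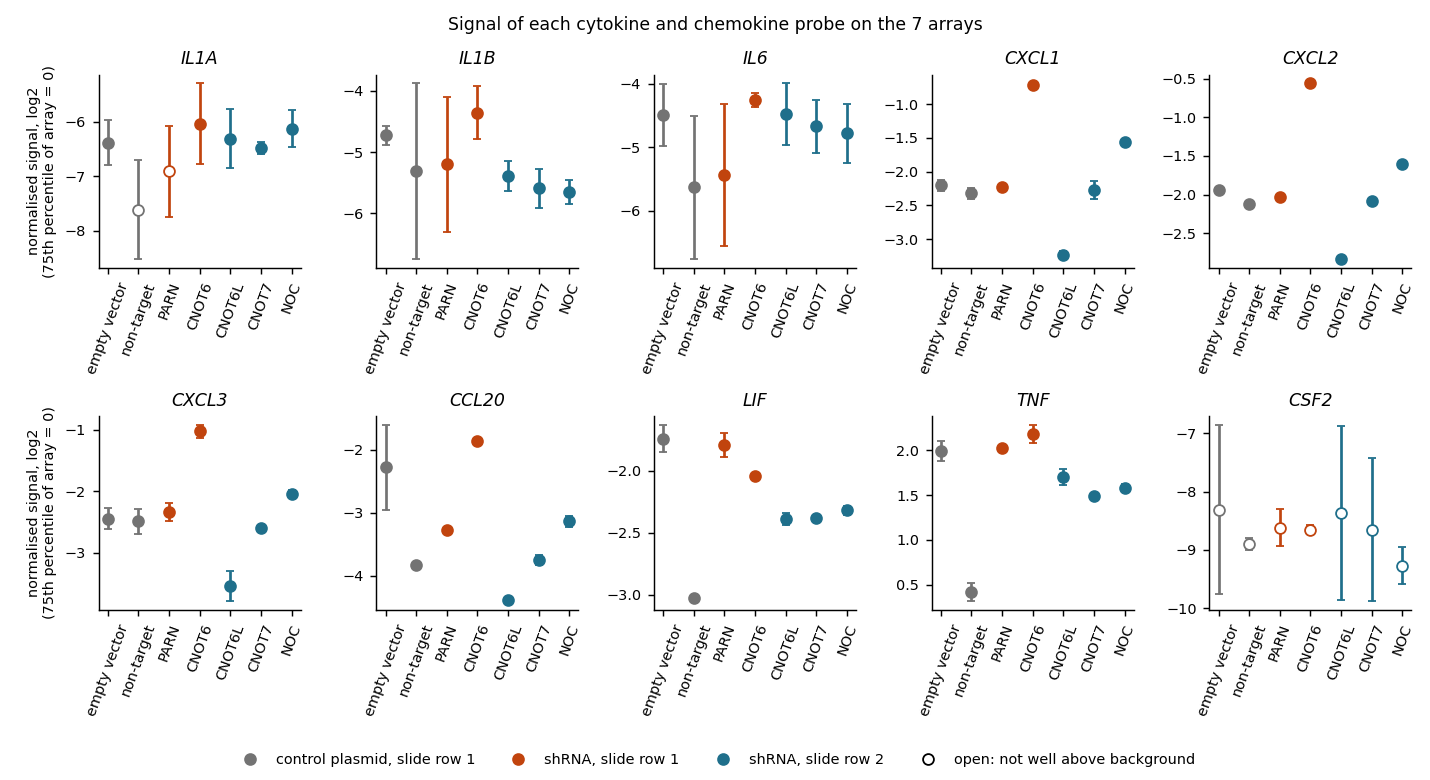
Normalised signal (log2, with the 75th percentile of each array at 0) of the brighter probe of each gene on the 7 arrays. Points are means over the spots of a probe, bars are the SD between those spots (none where 1 spot was printed), grey marks the controls, and open points were not well above background. CXCL1, CXCL2, CXCL3 and CCL20 are highest on the CNOT6 and lowest on the CNOT6L shRNA array, and TNF and LIF are lowest on the non-target array.

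The chemokines ranged most. Over the 7 arrays CCL20 spanned 5.77-fold, CXCL3 5.71-fold, CXCL1 5.68-fold and CXCL2 4.8-fold, against a median of 1.54-fold for the genes above background on all arrays. Of the 8 members above background on all arrays, 7 had their highest value on the CNOT6 shRNA array, where 18.9% of 16456 genes did. The lowest value was on the CNOT6L array for 4 of the 8 (CXCL1, CXCL2, CXCL3 and CCL20), where 10.2% of genes had theirs, on the non-target array for 3 (IL6, LIF and TNF), where 21.1% did, and on the NOC array for IL1B, where 13.0% did. These are counts over genes of the same 7 RNA samples, which are not independent.

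The control arrays were compared first, since neither carried a deadenylase shRNA. They carried different plasmids, so plasmid and transfection cannot be told apart in their difference. The difference was large for 5 of the 9 members that could be compared. IL1A, IL6, CCL20, LIF and TNF were at least 2-fold higher with the empty vector than with the non-target vector, as were 11.4% of 18067 genes, while 0.637% of genes and no member were lower. TNF differed 2.97-fold, CCL20 2.93-fold, LIF 2.44-fold and IL6 2.21-fold, and IL1A, below background on the non-target array, was at least 2.32-fold higher. The neutrophil chemokines behaved otherwise. CXCL1 differed by 0.12 log2 between the controls, CXCL2 by 0.17 and CXCL3 by 0.04. All 7 leukocyte markers were also lower on the non-target array, ITGAM at -0.87 against 0.86 and CD68 at -3.33 against -1.58 among them. So were the 6 markers of fibroblasts and endothelium above background on all arrays, with PECAM1 at -5.19 against -2.52. The share of all genes lower there by any amount was not counted. What part these markers have in the members' differences was not tested. For the 5 genes that differed between the controls, an shRNA array could thus lie near 1 control and far from the other.

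The array labelled CNOT6 shRNA, on which CNOT6 mRNA was at 88.2% of the control mean and so was hardly lowered, had higher CXCL1, CXCL2 and CXCL3 than both controls. CXCL1 exceeded the empty-vector array by 1.47 log2 and the non-target array by 1.59, which is 2.89-fold over the mean of both controls. CXCL2 exceeded them by 1.38 and 1.56, or 2.77-fold over their mean. CXCL3 exceeded them by 1.42 and 1.46, or 2.72-fold. The other probes moved alike, by 1.27 and 1.40 for CXCL1 and by 1.79 and 1.67 for CXCL2, so that all 5 probes of these genes were called. Thus 3 of 9 members were called higher and none lower, against 0.232% of 18076 genes called higher and 0.254% called lower.

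Of the remaining members on the CNOT6 array, CCL20 was 0.42 log2 above the empty-vector and 1.97 above the non-target array, and did not pass the rule because of the former. TNF was 0.19 and 1.76 above the controls, IL1A 0.35 and at least 1.57, IL6 0.25 and 1.39 and IL1B 0.37 and 0.95. LIF lay between them, at -0.30 against the empty vector and 0.98 against the non-target vector. In all, 8 of 9 members lay above both controls on this array, where 31.9% of genes did. The median difference of the 9 members from the mean of the controls was 0.98 log2, against 0.01 for all genes tested. That mean is lowered by the non-target array for IL1A, IL6, CCL20, LIF and TNF. Against the empty vector alone, only CXCL1, CXCL2 and CXCL3 were 2-fold higher. The margins of IL1A and IL1B over the empty vector were smaller than their SD between spots on this array, 0.74 and 0.43. That SD is of single spots, whereas the margins are between means of spots.

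Measurements of the target and of the array stand beside these differences. CNOT6 mRNA itself (A_24_P940125) was at 0.89 on this array against 1.11 and 1.03 on the controls. Whether CNOT6 was silenced here can therefore not be read from its mRNA, and the values are those of the array with that label. The array was also the dimmest of the slide. Without scaling between arrays its median gene shifted by -0.98 log2 against the controls, CXCL1 then exceeded them by 0.24 and 0.87, CXCL2 by 0.15 and 0.83 and CXCL3 by 0.19 and 0.73, and none was called. Scaling subtracts 1 value per array, so the distance of these genes from the rest of the array cannot change with it. The unscaled values therefore test nothing about brightness. Quantile normalization gave 1.54 and 1.46 for CXCL1, 1.45 and 1.45 for CXCL2 and 1.47 and 1.28 for CXCL3. The part of the array's brightness in these differences was not tested.

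The array of the CNOT6L shRNA was the lowest for the same chemokines. CXCL3 lay at -1.09 against the empty-vector and -1.05 against the non-target array, 0.475-fold of the control mean, and was the only member called lower on any shRNA array. CXCL1, at -1.03 and -0.91, and CXCL2, at -0.88 and -0.71, fell short of the threshold, and their other probes were at -0.76 and -0.64 and at -0.60 and -0.72. CCL20 was below both controls, at -2.11 and -0.56, and missed the threshold against the non-target array. With 1 of 9 members called lower and none higher, the background was 0.613% of 18120 genes lower and 0.248% higher. The median difference of the members was -0.38 log2, against 0.04 for all genes tested. CNOT6L mRNA was at 64.8% of the control mean on this array. CXCL3 was no longer called lower after quantile normalization, without scaling, or after normexp background correction, with -1.05, -0.71 and -0.89 against the mean of the controls in place of -1.07.

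No member was called on the PARN, CNOT7 and NOC shRNA arrays. The shares of all genes called higher and lower were 0.16% and 0.371% for PARN, 0.254% and 0.706% for CNOT7 and 0.353% and 0.976% for NOC. With PARN shRNA, the brighter probes of CXCL1, CXCL2 and CXCL3 lay within 0.15 log2 of both controls, and the other probes lay at -0.17 and -0.04 for CXCL1 and at -0.12 and -0.24 for CXCL2. PARN mRNA was at 45.3% of the control mean on that array. With CNOT7 shRNA the brighter probes also lay within 0.15 of both controls, and the other probes lay at -0.20 and -0.07 for CXCL1 and at 0.25 and 0.14 for CXCL2. CNOT7 mRNA was at 56.0%. NOC shRNA gave CXCL1 0.64 and 0.76 above the controls, CXCL2 0.35 and 0.52, and CXCL3 0.41 and 0.45. The other CXCL1 probe gave 0.25 and 0.38 and the other CXCL2 probe 1.05 and 0.94, so the probes of both genes disagreed on the size. NOCT mRNA was at -4.22 on the NOC array against -3.63 and -4.03 on the controls, or 76.0% of their mean.

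**Figure D2:**
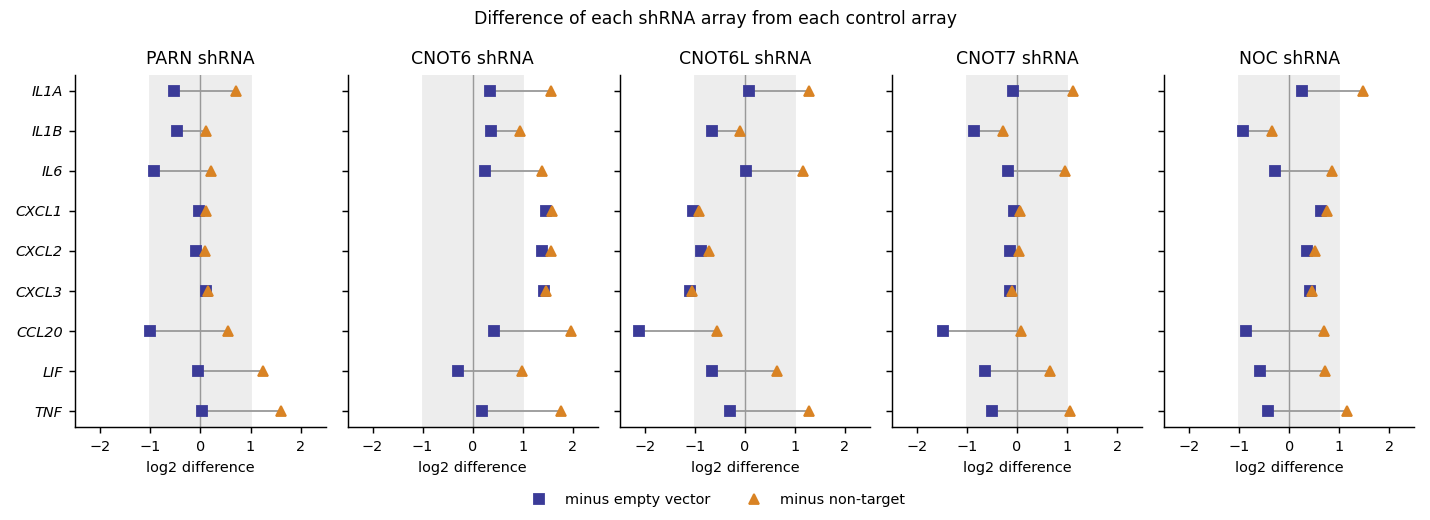
Difference in normalised signal (log2) of each shRNA array from each control, the empty vector as squares and the non-target vector as triangles, for the 9 members that could be compared. The grey band marks less than 2-fold, and a line joins the values of a gene. On the CNOT6 array both values of CXCL1, CXCL2 and CXCL3 lie between 1.38 and 1.59, while IL1A, IL6, CCL20, LIF and TNF have their 2 values far apart on every array.

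Position on the slide bears on 3 of the arrays. The controls, PARN and CNOT6 were in slide row 1, and CNOT6L, CNOT7 and NOC in slide row 2, which held no control, so that for these 3 shRNAs row and shRNA cannot be told apart. Set against the other 2 arrays of row 2, none of CNOT6L, CNOT7 and NOC had a member called in either direction. The shares of all 17866 genes called higher and lower were 0.571% and 0.106% for CNOT6L, 0.218% and 0.0616% for CNOT7 and 0.196% and 0.196% for NOC. IL1B was the only member whose rows did not overlap, with -4.90 ± 0.44 (SD, n = 4 arrays) in row 1 and -5.55 ± 0.13 (SD, n = 3 arrays) in row 2. Its SD among spots reached 1.43, on the non-target array of row 1. The share of all genes whose rows did not overlap was not counted, so this is no result about IL1B. CNOT6, the array with high CXCL1, CXCL2 and CXCL3, shared its row with both controls.

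The 5 shRNA arrays were then compared as 1 group with the 2 controls with limma, the one comparison with a spread to test against. That spread is the one among the 5 shRNAs and between both control plasmids, not between replicate cultures. No member passed. TNF, with the largest difference relative to its error, differed by 0.59 ± 0.36 log2 (SE), and every member had a Benjamini-Hochberg adjusted p of 0.999 in limma. CXCL1 differed by 0.26 ± 0.53, CXCL2 by 0.21 ± 0.47 and CXCL3 by 0.16 ± 0.52, since CNOT6 and CNOT6L shRNA lay on opposite sides of the controls. Of all 38004 probes tested, 0 passed an adjusted p of 0.05 (0.0%) and 1447 had an unadjusted p under 0.05.

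The profiles of the members over the arrays were compared by the root mean square difference of their centred values, a description over 7 arrays. CXCL1 and CXCL3 differed by 0.11 log2, CXCL1 and CXCL2 by 0.12, and CXCL2 and CXCL3 by 0.12. They were the closest pairs among the 8 members above background on all arrays. LIF and TNF came next at 0.23. CCL20 was nearer to CXCL2, at 0.44, than to LIF, at 0.66, or TNF, at 0.68. IL6 differed by 0.43 from TNF and by 0.66 to 0.77 from the CXCL genes.

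**Figure D3:**
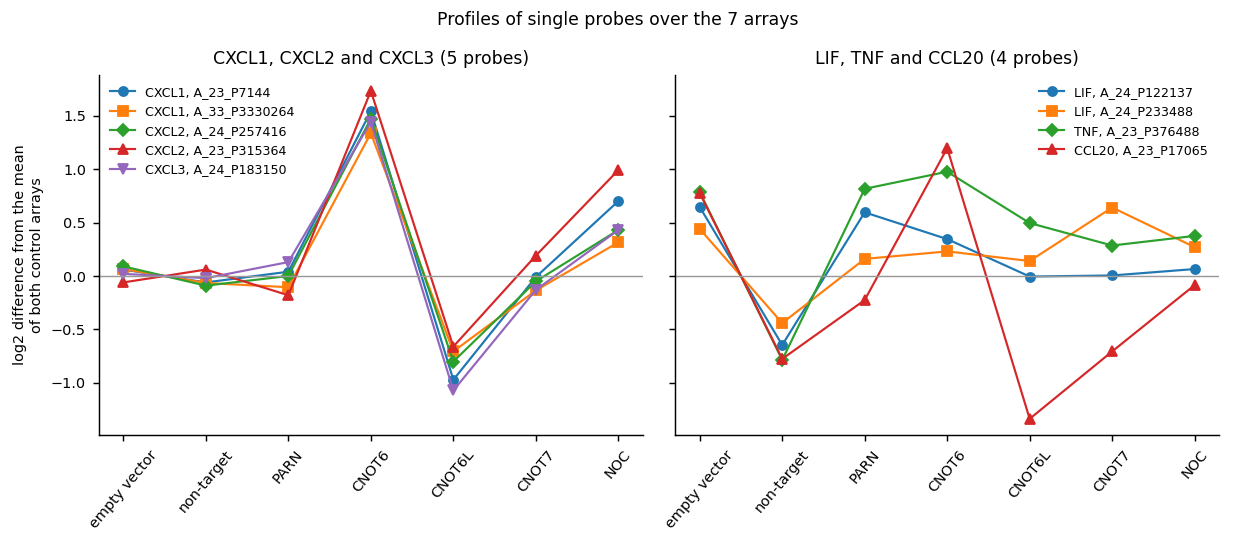
Values of single probes on the 7 arrays as log2 differences from the mean of both control arrays, for the 5 probes of CXCL1, CXCL2 and CXCL3 (left) and the 4 probes of LIF, TNF and CCL20 (right). The CXCL probes run close together, with both controls near 0, whereas the probes on the right separate the empty-vector from the non-target array.

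Among the other named genes above background on all arrays, those with a profile most like the mean of the 8 members included SGPP2, at a root mean square difference of 0.11 log2, IKZF1 at 0.16, GPR37L1 at 0.17 and CFAP58 at 0.18. SGPP2 encodes a phosphatase of sphingosine-1-phosphate. Its centred values were 0.75 on the CNOT6 array and -0.56 on the non-target array, against 0.94 and -0.52 for the mean of the members. The mean of CXCL1, CXCL2 and CXCL3 alone, a grouping chosen after their values were seen, was nearest to SELE, at 0.14. SELE encodes E-selectin, an adhesion protein that holds leukocytes to activated endothelium. Its probe A_23_P97112 exceeded the controls by 1.19 and 1.71 on the CNOT6 array, where it was called higher, and lay at -1.29 and -0.77 on the CNOT6L array. SELE was picked by its profile over these same arrays, so these values are no separate result. It had 2 probes, and the other is not given here. The next nearest were SYNPR at 0.33, RGR and MAP3K8 at 0.35 and GPR17 at 0.36.

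Other genes with the CXCL word in their promoter were looked up on the CNOT6 array. Apart from the 3 members, 23 genes held GGGAATTTCCC, of which 15 could be compared, and 0 of these 15 were called higher or lower. With 0.232% of all genes called higher and 0.254% lower, a count of 0 among so few genes is no result about them. Their median difference from the control mean was -0.13 log2. They included other neutrophil chemokines, CXCL5 at -0.34 and -0.22 and CXCL6 at 0.58 and 0.77, and REL, a subunit of NF-κB, at -0.19 and 0.30. Above both controls lay CXCL6, NFKBIB, RC3H2, PLLP, at 0.45 and 0.61, and WNT10A, at 0.47 and 1.16. Below both lay CACHD1, at -0.59 and -1.04, CCDC3, at -0.71 and -0.70, COL7A1, CXCL5, NDRG2, OAS3 and STARD3. OPTN, REL and TNFRSF9 lay between the controls. This search was made after the CXCL values were seen.

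Lists of related genes were examined by the same rule. Of all genes, 0.16% to 0.976% were called per shRNA array and direction, so a list this short without calls is no result about its genes. Of 18 other chemokines, 15 could be compared, and 1 was called higher with CNOT6 shRNA. This was CCL2, which attracts monocytes. CCL2 (A_23_P89431) was at 0.01 and 0.00 on the controls and at -0.83, 1.29, 0.22, -0.10 and 0.79 on the PARN, CNOT6, CNOT6L, CNOT7 and NOC arrays. The CNOT6 array was the highest and NOC the second, as for the CXCL genes, but the lowest was PARN. CXCL8, which encodes the neutrophil chemokine IL-8, was not above background on any array. CXCL10 and CXCL11 are interferon-induced chemokines that attract T cells. CXCL11 stood at -3.90 and -4.97 on the controls, -5.98 with CNOT6L, -5.79 with CNOT7 and -5.99 with NOC shRNA, and was called lower with CNOT6L and NOC, just past the threshold against the non-target array. CXCL10 was called lower with CNOT7 shRNA, by at least 1.76 log2, and was not well above background on that array.

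Of 20 other cytokines measured, 18 could be compared and IL36G, an epithelial cytokine of the IL-1 family, was called lower with CNOT7 shRNA, at -2.10 and -1.03. Its values were -4.43 and -5.50 on the controls and -6.19, -5.92, -6.14, -6.53 and -6.27 on the shRNA arrays. All 5 shRNA arrays lay below both controls. The share of all genes for which this holds was not counted, so it is no result about IL36G. Of 16 receptors, 15 could be compared and ACKR3, a scavenging chemokine receptor, was called higher with NOC shRNA, at 2.66 and 1.55. It missed the threshold narrowly with CNOT6 shRNA, at 2.11 and 0.99. The 13 antagonists and processing genes had no calls, which at the shares given above is no result about them. Among them IL1RN, the natural antagonist of the IL-1 receptor, was at -3.16 and -3.69 on the controls and highest on the CNOT6 array, at -2.72.

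Genes of the NF-κB pathway itself were described by the same counts. None of 14 measured core genes of the pathway was called with any shRNA, and their median difference was -0.04 log2 on the CNOT6 array. Of 15 feedback genes and targets, 0 were called with CNOT6 shRNA, and their median was 0.21. With 0.16% to 0.976% of all genes called per shRNA array and direction, counts of 0 among so few genes are no result about the pathway. NFKBIA, the inhibitor IκBα that NF-κB itself induces, was at 4.18 and 4.21 on the controls and at 4.24, 4.56, 3.52, 3.65 and 3.69 on the PARN, CNOT6, CNOT6L, CNOT7 and NOC arrays. It was highest on the CNOT6 array, by 0.39 and 0.35, and all 3 arrays of slide row 2 were below all 4 of row 1. TNFAIP3, the deubiquitinase A20 that ends NF-κB signalling, followed the rows as well. It was at 1.41, 0.92, 1.49 and 1.55 on the empty-vector, non-target, PARN and CNOT6 arrays and at -0.43, -0.08 and -0.08 on CNOT6L, CNOT7 and NOC, and was called lower with CNOT6L shRNA. BIRC3, an inhibitor of cell death, was also called lower with CNOT6L shRNA, at -1.05 and -1.17, and its CNOT7 and NOC values of -2.31 and -2.06 were likewise below all of row 1. Neither was called against the other arrays of row 2. The share of all genes that separate by slide row in this way was not counted. PTX3, a soluble pattern recognition protein, was called lower with PARN shRNA, at 1.53 against 3.09 and 2.74 on the controls.

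The 11 regulators of AU-rich element decay had no calls, which at the same shares is no result about them. ZFP36, which encodes tristetraprolin, the protein that brings deadenylases to AU-rich mRNAs, was at 2.94 and 3.08 on the controls and between 2.84 and 3.03 on the shRNA arrays. Its values on the CNOT6 array differed by less than 0.10 log2 from each control.

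**Figure D4:**
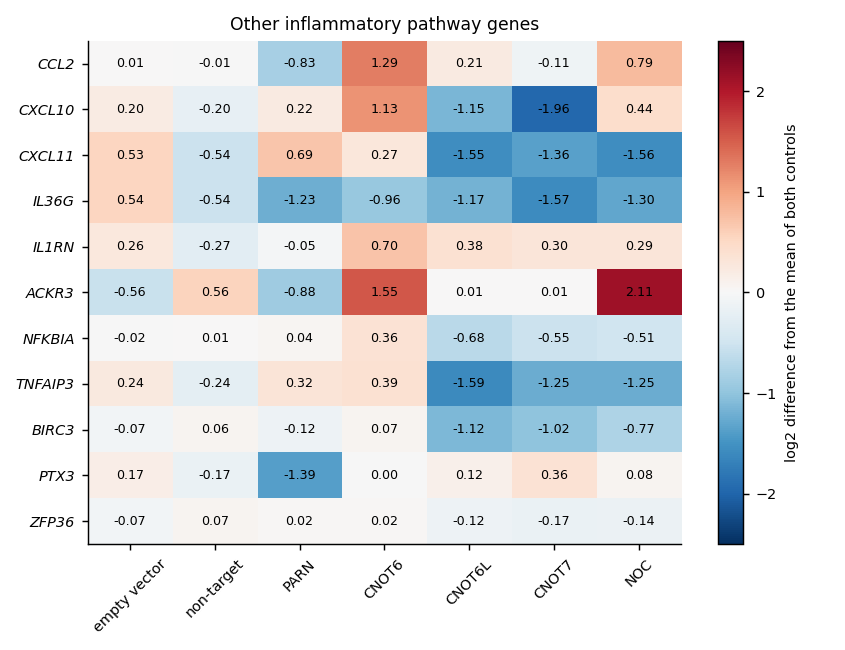
Differences (log2) from the mean of both control arrays for 11 genes of the related lists on the 7 arrays, in colour and as printed values. CCL2 and ACKR3 are high on the CNOT6 and NOC arrays, and NFKBIA, TNFAIP3, BIRC3 and CXCL11 are low on the 3 arrays of slide row 2.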

How the data were processed

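RNA of NCI-H520 cells was hybridised to 7 arrays on 1 slide. The authors deposited scanner output of Feature Extraction 10.7.3.1, with an intensity for each of 62976 spots. The deposited series table holds log2 values, which matched the scanner values within 0.02 log2 after 1 shift per array and a median subtracted per probe. Probes were named through accessions with a RefSeq gene table of GRCh38.p14 (24826 of 42405 gene probes), and the CNOT6 probe through its label accession with a missing zero restored.

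Control spots and spots marked as outliers were left out, and the log2 processed signals of a probe's spots were averaged and the array's 75th percentile subtracted. A probe passed background where the software marked 50% or more of its spots as well above it. For a gene with several probes the brightest was used. In a call the brighter side had to pass background. A dimmer side that failed took its own value or the lowest passing value of the array, whichever was higher, and the change is then a lower bound. The number of arrays limits the precision, and p-values measure only the spread between these samples. The comparison of 5 shRNA with 2 control arrays used limma 3.58.1 in R 4.3.3 (lmFit, eBayes with a trend, two-sided) over probes that passed background on 2 or more arrays. It was tested on simulated data.

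The members, the lists and the tests were chosen with earlier results of these data known. Named genes were all members, up to 4 called genes of each list by the smaller of their differences from the controls, IL1RN, NFKBIA, TNFAIP3, ZFP36 and CXCL8, the targeted genes, and the 5 nearest profiles, of which 1 is not reported here. SELE and the other genes near the CXCL mean, and the genes named for the CXCL word in their promoter, fall outside this rule and were chosen after their values were seen. Alternatives were quantile normalization, a 4-fold threshold, unscaled signals, normexp with an offset of 50, the series table, outlier spots kept, the mean over probes, probes above background on all arrays only, either control alone, the slide row as a term, no filter on dim probes, each array left out and, chosen after seeing the data, the median over spots.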

Additional observations from a re-analysis of the deposited data

How the results depend on the processing

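Under the main settings 3 members were called higher and 1 lower over the 5 shRNA arrays, 5 were higher on the empty-vector than on the non-target array, and the related lists gave 2 higher and 7 lower calls. At 4-fold, all 3 member counts were 0. With quantile normalization the higher count became 4, as IL1A was also called with NOC shRNA. The lower count became 0, that between the controls 3, and 2 lower calls appeared against slide-row mates (CXCL1 and CXCL3 with CNOT6L shRNA). Without scaling the higher and lower counts were 0 and 0, and the same 2 lower calls against slide-row mates appeared. With normexp the lower count was 0, the controls gave 3 and the lists 2 lower calls. Against the empty-vector array alone there were 5 lower member calls and 4 higher and 46 lower list calls. Of all genes, 0.54% were then called higher and 5.67% lower, as means over the shRNA arrays. Against the non-target array alone there were 16 higher member calls and 30 higher and 15 lower list calls. The mean shares of all genes were then 5.53% higher and 1.59% lower. The higher calls of CXCL1, CXCL2 and CXCL3 with CNOT6 shRNA held in 9 of the 11 other settings tried for the 2-fold rule, and were lost at 4-fold and without scaling. Either control alone and the filter on background could not lose these calls. The series table, kept outlier spots and the median over spots left their differences almost unchanged. Among the 9, those that changed the differences were quantile normalization, normexp and, for CXCL1 and CXCL2, the mean over probes. In limma no member passed under any setting, and over all probes 3 passed without scaling (all lower) and 0 to 59 when an array was left out, with 59 without the empty-vector and 1 without the non-target array. No paired analysis was possible because every group had a single array with replicate number 1. With 1 array per group, differences of the size seen between the controls (TNF, CCL20, LIF, IL6 and IL1A) cannot be told from an effect of an shRNA, and the dim probes of IL1A, IL1B and IL6 scatter widely between spots.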
